A study of Homo sapiens with 6 samples.

Results

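The miR-25/92 seed family is a group of microRNAs (miRNAs) that read their targets through the same short stretch of bases. Its members here are hsa-miR-25-3p, hsa-miR-92a-3p and hsa-miR-92b-3p (the prefix marks a human miRNA and is left out from here on). They were chosen by name from the count tables and not by a rule on their values, though with earlier results of these data known. They are 3 of the 503 mature miRNAs listed. They were measured by small RNA sequencing of exosomes, the small vesicles that cells release, from MDA-MB-231, a long-established human cell line of triple-negative breast cancer with mesenchymal traits. The tested libraries came from stable clones carrying a short hairpin RNA that targets MCU (shMCU); MCU forms the channel through which mitochondria take up calcium. The control libraries came from stable clones with the hairpin labelled shNC. There were 3 shMCU and 3 shNC libraries, all from cells grown without further treatment in medium with exosome-depleted serum. How many clones were used, and whether each replicate had a culture of its own, is not stated in the labels. The p-values below therefore describe the spread among 6 libraries, and that spread may be technical. MCU mRNA is not measured by small RNA libraries, so the knockdown was not checked here.

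A miRNA guides the silencing machinery to messenger RNAs that pair with its seed, bases 2 to 8 counted from the 5′ end, and miRNAs with one seed therefore share many predicted targets. miR-92a and miR-25 are processed from long transcripts that also hold miR-17, miR-20a, miR-93 and other growth-promoting miRNAs under the control of MYC and E2F, while miR-92b is transcribed apart from them. miR-92a-3p is known for restraining angiogenesis and the pro-apoptotic factor BIM, and miR-25-3p for lowering MCU and so mitochondrial calcium uptake, which makes it the member with a direct tie to the gene silenced in this study.

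The mature sequences below, from RefSeq on GRCh38.p14, show the seed in capitals. They are printed because the counts of the members can be told apart only by the bases outside it.
miR-92a-3p: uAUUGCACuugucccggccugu
miR-92b-3p: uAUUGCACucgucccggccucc
miR-25-3p: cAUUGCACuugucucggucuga
miR-32-5p: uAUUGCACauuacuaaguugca
The seed is the same in all 4, and 6 of the 2370 mature human miRNAs of that table carry it, of which 5 were listed in these data. Set against miR-92a-3p without gaps and counted from the 5′ end, miR-92b-3p differs at 3 positions, U10C, G21C and U22C. Of these, 1 lies in the first 19 bases, so a read of miR-92b-3p that lost its 3′ end is told from miR-92a-3p by the single difference U10C. miR-25-3p differs from miR-92a-3p at 4 positions, U1C, C14U, C18U and U22A. The mismatch setting of the authors' alignment is not given in the sources used here, so how far reads of miR-92a-3p were counted as miR-92b-3p was not tested.

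The members come from 4 hairpins, printed here with the 3′ arm, the measured guide strand, in capitals.
MIR92A1: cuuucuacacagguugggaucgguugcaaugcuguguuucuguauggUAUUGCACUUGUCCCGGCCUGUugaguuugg
MIR92A2: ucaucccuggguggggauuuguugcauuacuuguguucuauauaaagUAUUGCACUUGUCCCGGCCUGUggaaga
MIR25: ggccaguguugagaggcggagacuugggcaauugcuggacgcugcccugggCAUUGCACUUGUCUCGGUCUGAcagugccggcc
MIR92B: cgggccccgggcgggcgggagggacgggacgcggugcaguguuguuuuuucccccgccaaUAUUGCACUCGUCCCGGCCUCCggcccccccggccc
MIR92A1 lies on the plus strand of chromosome 13 (GRCh38, 91351314 to 91351391) within MIR17HG, in an exon of 2 of its 3 annotated transcripts. MIR92A2 lies on the minus strand of chromosome X (134169538 to 134169612), in an exon of the non-coding gene AC002407.1. Both hairpins give the same mature miR-92a-3p, so its counts cannot be divided between them. MIR25 lies on the minus strand of chromosome 7 (100093560 to 100093643), in an intron of MCM7, a subunit of the replicative helicase, and 124 bases from MIR93. MIR92B lies on the plus strand of chromosome 1 (155195177 to 155195272), within the non-coding gene AC234582.1, and the nearest coding gene, THBS3 on the other strand, ends 316 bases away. The authors aligned to hg19, so these positions describe the genes and not the alignment.

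A match to this seed, which the members share, was looked up in the annotated 3′ UTR of MCU. Of the members, only miR-25-3p is on the list of miRNAs reported to target MCU used here. In the longest annotated 3′ UTR of MCU (1872 bases, GENCODE release 29), the letters GTGCAAT, the reverse complement of the seed, occur 1 time on the transcript's strand, at bases 1076 to 1082. The match is shown in capitals within its 22 bases, which lie at chr10:72886884-72886905 on the plus strand of GRCh38.
MCU site: gtggatctcaaaggGTGCAATt
The same letters occur in 11.0% of 19084 human 3′ UTRs and in 11.6% of the 2525 whose length is within 80% to 120% of that of MCU. The match is a description of the sequence, and these data do not measure pairing at it.

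The deposited values were read counts per mature miRNA. Library totals were low, from 12859 to 14692 counts in shMCU and from 11563 to 47863 in shNC. A list of markers for mesenchymal-like breast carcinoma lines, with 4 of 4 detected, together took 25.6% to 35.9% of counts in shMCU and 31.9% to 36.4% in shNC. Nearly all of this was miR-21-5p and miR-100-5p. Epithelial miRNAs, the miR-200 family with miR-205, took at most 0.124% in shMCU and 0.208% in shNC, and miR-141-3p was not among those listed. In a principal component analysis, shMCU replicate 3 lay far from the rest on the leading axis, at 6.11, while the scores of the remaining 5 libraries ran between -2.73 and 1.11.

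The family was an abundant part of exosomal miRNA in both groups. Its 3 members together made up 5.84%, 4.81% and 3.07% of counts in shMCU replicates 1, 2 and 3, against 7.54%, 4.25% and 4.44% in shNC replicates 1, 2 and 3. Exact 95% binomial intervals, here and below covering counting error only, ran from 2.78% to 3.38% for the lowest library, shMCU replicate 3, and from 7.31% to 7.78% for the highest, shNC replicate 1. The means were 4.57% ± 1.40 in shMCU and 5.41% ± 1.85 in shNC (SD, n = 3 each), the groups overlapped, and the difference of -0.83 percentage points was smaller than either SD. That difference turned to 0.23 without shNC replicate 1 and was -0.08 without shMCU replicate 3, so its size rested on those libraries. Of 6857 counts over all libraries that carried the seed, miR-92a-3p held 71.1% and miR-25-3p 27.0%, and the order miR-92a-3p, miR-25-3p, miR-92b-3p was the same in each of the 6 libraries.

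miR-92a-3p was the leading member. Its counts were 577, 455 and 232 in shMCU replicates 1, 2 and 3, or 4.46%, 3.10% and 1.80% of the library, against 2656, 345 and 610 in shNC replicates 1, 2 and 3, or 5.55%, 2.98% and 3.07%. The first replicate was the highest of its group in both groups, shMCU replicate 3 was the lowest of the 6, and the groups overlapped. By rank it was the 5th, 9th and 11th most counted miRNA in shMCU and the 4th, 10th and 9th in shNC. Its neighbours in mean level were within its own spread: let-7a-5p, next below it in both groups, averaged 28418 ± 5301 CPM (counts scaled to equal library totals) in shMCU and 37432 ± 3741 in shNC, where miR-92a-3p averaged 31212 ± 13293 and 38669 ± 14575 (SD, n = 3 each). Between the highest and lowest library its share differed by 3.08-fold, and the SD of its log2 share over the 6 libraries was 0.56 where counting error alone gives 0.068.

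miR-25-3p was the steadiest member. It had 158, 246 and 155 counts in shMCU replicates 1, 2 and 3 (1.22%, 1.67% and 1.21% of the library), against 889, 143 and 258 in shNC replicates 1, 2 and 3 (1.86%, 1.24% and 1.30%). The groups overlapped, with the highest shares in shNC replicate 1 and shMCU replicate 2 and the other 4 libraries between 1.21% and 1.30%. Between the highest and lowest library it differed by 1.54-fold, and its log2 share had an SD of 0.27 against 0.10 from counting. It averaged 13672 ± 2661 CPM in shMCU and 14639 ± 3421 CPM in shNC (SD, n = 3 each), the 14th and the 13th highest mean of the 503 listed. miR-378a-3p, an intronic miRNA of a mitochondrial biogenesis gene and its neighbour in that order in both groups, did not differ from it beyond this spread, at 14857 ± 1423 CPM in shMCU and 13442 ± 1800 CPM in shNC.

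miR-92b-3p was rare. Its counts were 20, 6 and 8 in shMCU replicates 1, 2 and 3, against 66, 3 and 14 in shNC replicates 1, 2 and 3. As a share this was 0.155%, 0.0408% and 0.0622% in shMCU and 0.138%, 0.0259% and 0.0704% in shNC, high in the first replicate of each group and overlapping between groups. The 95% interval of a single library was wide, from 0.00535% to 0.0758% for the 3 counts of shNC replicate 2. Summed over each group, 34 of 40481 counts in shMCU and 83 of 79310 in shNC gave a ratio of 0.80 (shMCU over shNC). Its exact interval for counting error ran from 0.52 to 1.21. The ratio became 1.55 without shNC replicate 1 and 0.49 without shMCU replicate 1. The sums weight libraries by depth, and 66 of the 83 shNC counts came from shNC replicate 1. With libraries weighted equally the direction was the opposite. miR-92b-3p then averaged 859 ± 605 CPM in shMCU and 781 ± 564 CPM in shNC (SD, n = 3 each), a difference smaller than either SD. Its log2 share had an SD of 0.99 over the 6 libraries where counting error alone gives 0.51, and these libraries showed no difference in miR-92b-3p larger than that spread.

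**Figure D1:**
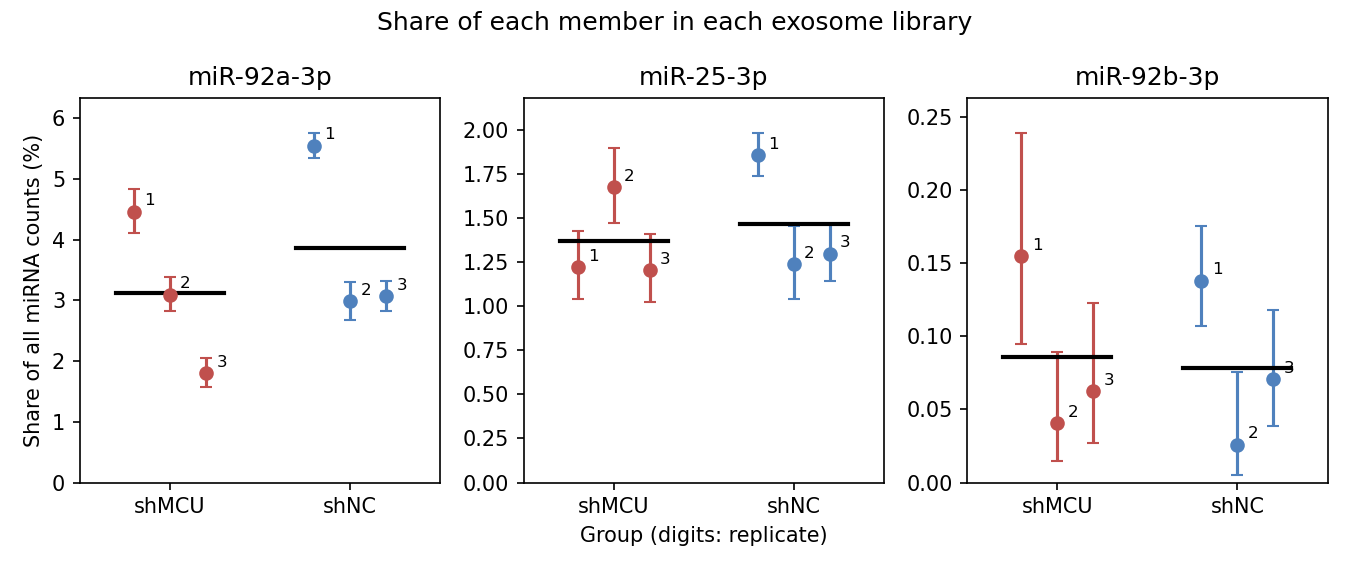
Share of all miRNA counts (%) taken by miR-92a-3p, miR-25-3p and miR-92b-3p in each library, shMCU left and shNC right. Points are libraries with their replicate number, bars are exact 95% binomial intervals (counting error only) and lines are group means; the axes start at 0 and differ in scale. The groups overlap for each member, and the 5.55% of miR-92a-3p in shNC replicate 1 and its 1.80% in shMCU replicate 3 are the extremes of that panel.

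No member differed between shMCU and shNC exosomes in the test across all miRNAs. Of 79 miRNAs that passed edgeR's filter on low counts, 0% were called at an adjusted p of 0.05 by its quasi-likelihood test, and 3 (3.8%) had an unadjusted p under 0.05. DESeq2 called 1 of the 79 (1.27%), miR-122-5p, and edgeR without the filter called 1 of 503 (0.199%), miR-375; neither is a member, and miR-375 was chosen after its values were seen. The groups overlapped in CPM for each of the 3 members, whereas they did not for 11.4% of the 79 miRNAs, with shMCU lower in 10.1% and higher in 1.27%. Of the 3 members, miR-25-3p and miR-92a-3p passed the filter and miR-92b-3p did not. The log2 fold change of miR-92a-3p (shMCU over shNC) was -0.13 ± 0.32 (SE), or 0.91-fold on a linear scale (95% interval 0.56 to 1.50; adjusted p = 0.92, edgeR). That of miR-25-3p was 0.12 ± 0.25, or 1.09-fold (0.74 to 1.61; adjusted p = 0.92, edgeR). Fitted over every listed miRNA without a filter, miR-92b-3p had a log2 fold change of -0.05 ± 0.53, or 0.96-fold (0.47 to 1.98; adjusted p = 0.98, edgeR). That fit had a median log2 fold change of -0.25, against -0.02 with the filter. In it miR-92a-3p was -0.34 and miR-25-3p -0.073, so the value of miR-92b-3p is not on the scale of the other 2 values above. None of these intervals leaves out 1, and those of miR-92a-3p and miR-25-3p leave out a doubling as well as a halving.

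The signs of these small changes were not stable. The fitted values are scaled by TMM, which sets libraries level on most of their miRNAs, while CPM divide by the total alone; the TMM factor was 0.82 in shMCU replicate 3 and 0.93 to 1.12 in the others. With totals alone the median log2 fold change of the 79 miRNAs was -0.23 in place of -0.02, and miR-25-3p was -0.10, above that median, and miR-92a-3p -0.31, below it. miR-92a-3p was 0.02 without shMCU replicate 3 and 0.18 without shNC replicate 1, the libraries with its lowest and highest share. miR-25-3p was -0.08 without shMCU replicate 2, -0.00016 without shNC replicate 2 and 0.29 without shNC replicate 1. miR-92b-3p was above 0 without shMCU replicate 2 (0.26), shMCU replicate 3 (0.15) or shNC replicate 1 (0.80).

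**Figure D2:**
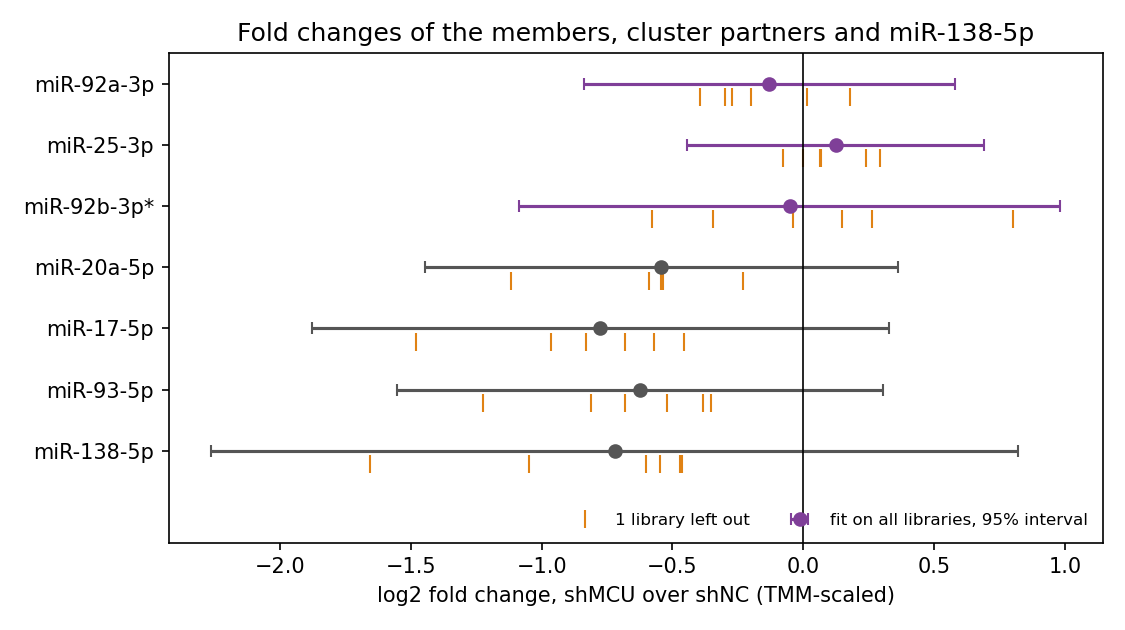
Log2 fold change of shMCU over shNC (TMM-scaled, edgeR) for the 3 members in purple, and for miR-20a-5p, miR-17-5p, miR-93-5p and miR-138-5p in grey. Points are fits on all 6 libraries with 95% intervals, orange ticks are fits with 1 library left out, and the star marks miR-92b-3p, fitted without the filter on low counts. The median log2 fold change was -0.25 in that unfiltered fit and -0.02 in the fit of the other points. Every interval spans 0; the ticks of the 3 members fall on both sides of 0, while those of the other 4 miRNAs stay below it, from -1.66 to -0.23.

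Ratios between members were compared because a ratio within a library needs no scaling between libraries. There were 0.274, 0.541 and 0.668 counts of miR-25-3p for each count of miR-92a-3p in shMCU replicates 1, 2 and 3, against 0.335, 0.414 and 0.423 in shNC replicates 1, 2 and 3. The shNC values lay inside the range of the shMCU values, which held both the lowest and the highest ratio of the 6 libraries. The 95% intervals of shMCU replicate 1 (0.228 to 0.327) and shMCU replicate 3 (0.542 to 0.822) did not meet, and neither did those of shNC replicate 1 (0.310 to 0.361) and shNC replicate 3 (0.364 to 0.490), so replicates of both groups differed by more than counting error. The mean log2 ratio was -1.11 ± 0.67 in shMCU and -1.36 ± 0.19 in shNC (SD, n = 3 each). The difference of 0.25 gave an exact permutation p of 0.50 (two-sided, 0.75 adjusted over the 3 ratios), where the smallest p of 20 arrangements is 0.1. Leaving out shMCU replicate 3 made the difference -0.01, and leaving out shMCU replicate 1 made it 0.63.

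The ratios of the rare member were less precise. Per count of miR-92a-3p, miR-92b-3p had 0.0347, 0.0132 and 0.0345 counts in shMCU replicates 1, 2 and 3, against 0.0248, 0.00870 and 0.0230 in shNC replicates 1, 2 and 3. Replicate 2 was the lowest of each group and the groups overlapped. The mean log2 ratio was -5.32 ± 0.80 in shMCU and -5.87 ± 0.84 in shNC (SD, n = 3 each; difference 0.56, exact two-sided permutation p = 0.50, adjusted 0.75), and the difference was 0.07 without shNC replicate 2 and 1.02 without shMCU replicate 2. Against miR-25-3p, miR-92b-3p had 0.0244 to 0.127 counts per count in shMCU and 0.0210 to 0.0742 in shNC, with a difference of 0.30 on the log2 scale (exact two-sided permutation p = 0.80, adjusted 0.80). That difference was -0.31 without shMCU replicate 1 and -0.23 without shNC replicate 2.

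**Figure D3:**
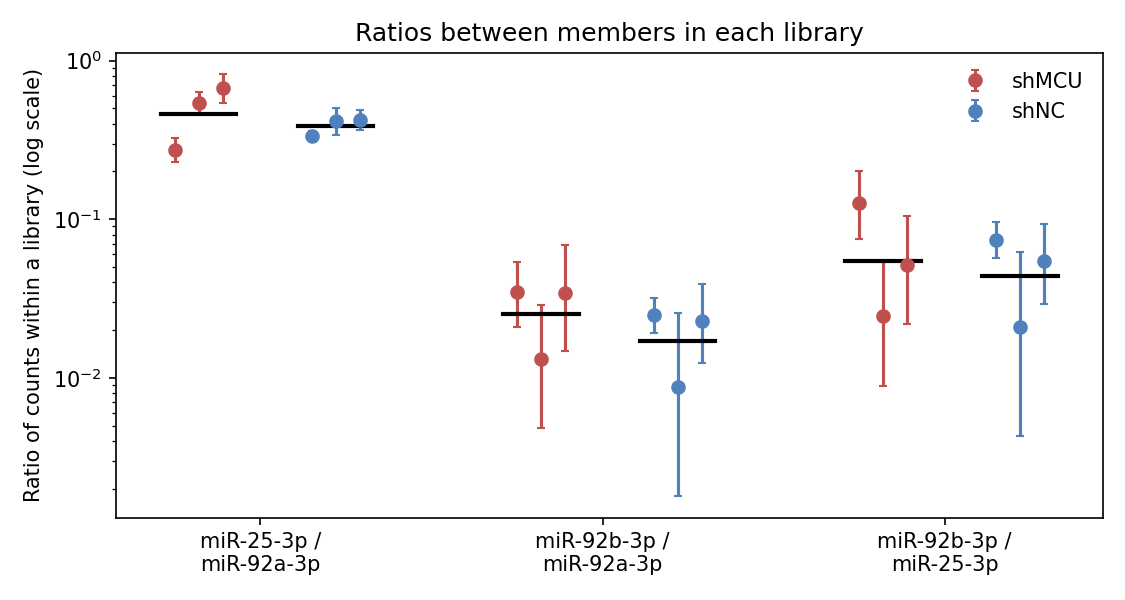
Ratios of counts between the members within each library on a log scale, shMCU in red left of shNC in blue for each ratio, replicates 1 to 3 from left to right. Points are libraries, bars are 95% intervals for counting error and black lines are the group means of the log ratios. For miR-25-3p over miR-92a-3p, the shNC libraries sit between 0.335 and 0.423, inside the shMCU range of 0.274 to 0.668.

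The members' hairpins were read almost wholly from their 3′ arm. Over all libraries, miR-25-3p took 1849 of the 1858 counts of its hairpin, 99.5% (95% interval 99.1% to 99.8%). miR-92b-3p took 117 of 124, 94.4% (88.7% to 97.7%), with 34 of 38 in shMCU and 83 of 86 in shNC. The opposite arm of MIR92A1 had 1 count against 4875 of miR-92a-3p, and that of MIR92A2 was not listed. From the same cluster as miR-25, the hairpin of miR-106b also gave mostly its 3′ arm, with 191 of 214 counts; miR-106b-3p was chosen after its values were seen.

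The cluster partners, which are cut from the same transcripts as miR-92a and miR-25, were scarcer than miR-92a-3p and miR-25-3p. Of those listed by their usual guide arm, the 3 tested were fitted lower in shMCU, while miR-106b-3p, the more counted arm of its hairpin, was fitted higher. miR-20a-5p, a cell cycle regulator of the miR-17 seed, had 80, 46 and 16 counts in shMCU replicates 1, 2 and 3, against 268, 67 and 113 in shNC replicates 1, 2 and 3. Relative to library totals that was 6187, 3131 and 1244 CPM in shMCU, and 5599, 5794 and 5683 CPM in shNC, so the shNC libraries were level while the shMCU libraries spread to both sides of them. Of the 5 partners in the miR-17-92a-1 cluster, 2 were tested, miR-20a-5p at a fold of 0.69 (95% interval 0.37 to 1.28) and miR-17-5p at 0.58 (0.27 to 1.25). In the miR-106b-25 cluster, 1 of the 2 partners by guide arm was tested, miR-93-5p, also of the miR-17 seed, at a fold of 0.65 (0.34 to 1.24). From the same transcript, miR-106b-3p had 9, 40 and 25 counts in shMCU replicates 1, 2 and 3, against 73, 17 and 27 in shNC replicates 1, 2 and 3, with shMCU replicate 1 below and the other shMCU libraries above all shNC libraries by CPM. Its fold was 1.47 (0.69 to 3.13; adjusted p = 0.81, edgeR). None of the 3 passed the test (adjusted p = 0.71, 0.70 and 0.70 for miR-20a-5p, miR-17-5p and miR-93-5p, edgeR), and of all 79 miRNAs 51.9% were fitted lower and 48.1% higher. These values leaned on shMCU replicate 1: without it the log2 fold change was -1.12 in place of -0.54 for miR-20a-5p, -1.48 in place of -0.78 for miR-17-5p, -1.22 in place of -0.62 for miR-93-5p and 0.95 in place of 0.56 for miR-106b-3p, and none was called (adjusted p = 0.17 for each, edgeR). Without shMCU replicate 2 that of miR-106b-3p was 0.13, and without shMCU replicate 3 that of miR-20a-5p was -0.23. The median log2 fold change of the 2 tested miR-17-92a-1 partners was -0.66, against -0.02 over all miRNAs tested. The other partners of these clusters were below the filter: summed over 3 libraries each, miR-18a-5p had 0 counts in shMCU and 7 in shNC, miR-19a-3p 3 and 12, miR-19b-3p 17 and 41, and miR-106b-5p 6 and 17, from totals of 40481 counts in shMCU and 79310 in shNC. In the miR-106a-363 cluster, which holds MIR92A2, 0 of 5 partners were tested; miR-106a-5p and miR-363-3p had 1 count each, both in shNC replicate 1, and miR-18b-5p and miR-20b-5p were not listed.

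Members and partners were not found in fixed proportion. There were 7.21, 9.89 and 14.5 counts of miR-92a-3p for each count of miR-20a-5p in shMCU replicates 1, 2 and 3, against 9.91, 5.15 and 5.40 in shNC replicates 1, 2 and 3. For miR-25-3p over miR-93-5p, encoded side by side on chromosome 7, the values were 2.77, 8.79 and 11.1 in shMCU and 5.63, 2.17 and 3.39 in shNC. The groups overlapped in both ratios. Over the 6 libraries the log2 ratio of miR-25-3p to miR-93-5p had an SD of 0.94, that of miR-92a-3p to miR-20a-5p 0.58 and that of miR-25-3p to miR-92a-3p 0.46. Counting error alone gives about 0.24, 0.20 and 0.12 for these ratios in that order. The median SD over all 3081 pairs of tested miRNAs was 0.66. The part of counting error in that median, which includes miRNAs of low count, was not worked out. For miR-92a-3p over its other tested partner, miR-17-5p, the SD was 0.88, where counting error alone gives about 0.36. The partners miR-93-5p and miR-20a-5p, from different chromosomes but of the same seed, kept their ratio more closely, with an SD of 0.29 where counting error alone gives about 0.29. The spread against a genomic neighbour depended on which neighbour was taken: for miR-25-3p over miR-106b-3p the ratios were 17.6, 6.15 and 6.20 in shMCU and 12.2, 8.41 and 9.56 in shNC. Their SD was 0.59 on the log2 scale, where counting error alone gives about 0.31. The mean log2 ratio of miR-25-3p to miR-106b-3p was lower by 0.18 in shMCU than in shNC, and that of miR-25-3p to miR-93-5p was higher by 0.90. The differences between these spreads were not tested.

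Other miRNAs of the seed were near the limit of detection. miR-32-5p, from an unrelated locus, had 1, 0 and 1 counts in shMCU replicates 1, 2 and 3, against 8, 3 and 2 in shNC replicates 1, 2 and 3. By CPM each shMCU library lay below each shNC library, as for 5.37% of all 503 listed miRNAs (the reverse held for 0.994%). With 0 counts, taken to allow up to 3, the level in shMCU replicate 2 could still reach 204 CPM, more than 2 of the 3 shNC values. The summed counts of 2 and 13 gave a ratio of 0.30 with an exact interval from 0.033 to 1.33. miR-363-3p had a single count and miR-367-3p, a miRNA of pluripotent stem cells, was not listed.

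Among miRNAs reported to target MCU, miR-25-3p was by far the most counted. miR-138-5p had 10, 3 and 2 counts in shMCU replicates 1, 2 and 3, against 22, 10 and 17 in shNC replicates 1, 2 and 3, overlapping through shMCU replicate 1. It was 0.61-fold (95% interval 0.21 to 1.77; adjusted p = 0.86, edgeR), and its log2 fold change was -1.66 without shMCU replicate 1 in place of -0.72. miR-340-5p, under the filter, had 8, 8 and 4 counts in shMCU and 24, 11 and 9 in shNC, a summed ratio of 0.89 (0.50 to 1.54, counting error only). Of the 3, 2 were tested and 0 were called in either direction. Together they took 1.45% ± 0.26 of counts in shMCU and 1.60% ± 0.31 in shNC (SD, n = 3 each), a difference smaller than either SD.

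The profile of each tested member over the 6 libraries was set beside those of the other 78 tested miRNAs, by the root mean square difference of log2 CPM after centring each miRNA on its own mean. Nearest to miR-92a-3p were miR-320a, a miRNA made without Drosha, at 0.16, miR-24-3p, of the miR-23/27/24 clusters, at 0.19, and miR-423-3p at 0.21, against a median of 0.54 over the 78. These 4 were all lowest in shMCU replicate 3, by 0.79 to 1.14 log2 units under their own means. Nearest to miR-25-3p were let-7b-5p, a tumour-suppressive let-7 miRNA, at 0.15, miR-99b-5p at 0.17 and miR-629-5p at 0.22, against a median of 0.46. miR-25-3p and miR-92a-3p differed by 0.42, which placed miR-25-3p 22nd in likeness to miR-92a-3p and miR-92a-3p 34th in likeness to miR-25-3p. These are descriptions over 6 libraries of unequal depth, with totals from 11563 to 47863 counts. The part of depth or preparation in the likeness was not tested.

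**Figure D4:**
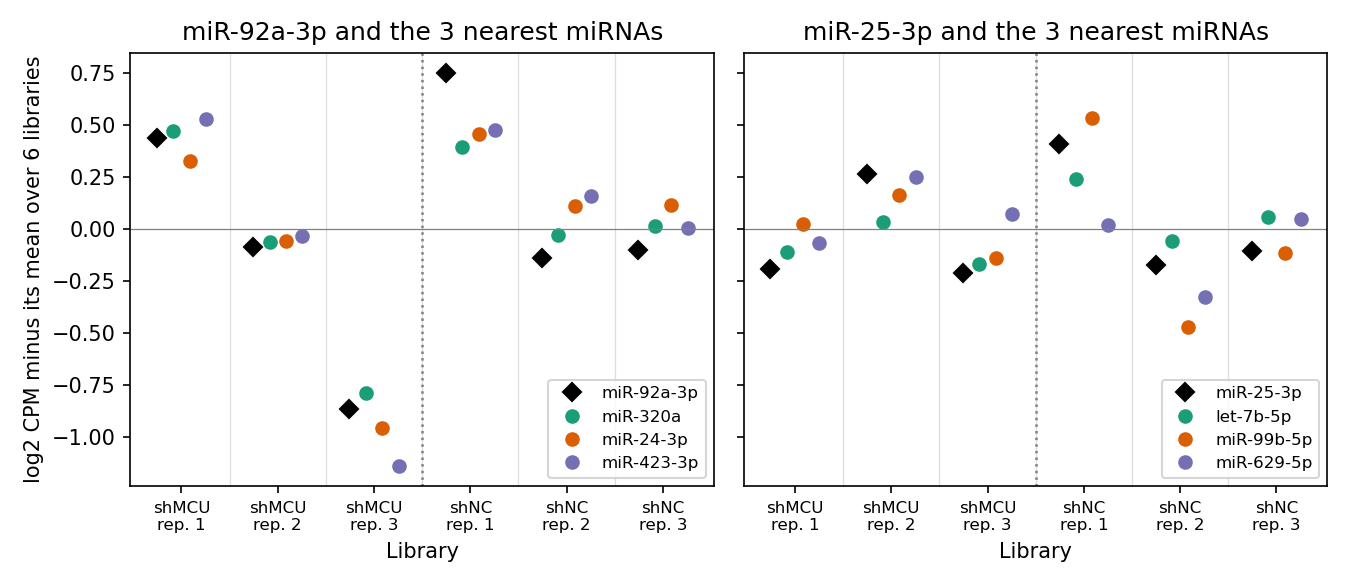
Log2 CPM of miR-92a-3p (left) and miR-25-3p (right), black diamonds, and of the 3 tested miRNAs nearest to each, circles, after subtracting each miRNA's mean over the 6 libraries. The dotted line separates shMCU from shNC libraries. In the left panel all 4 miRNAs are lowest in shMCU replicate 3, where miR-92a-3p is at -0.86; in the right panel miR-25-3p stays between -0.21 and 0.41.

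The library with the least miR-92a-3p also held the most miR-122-5p, a liver miRNA. Liver markers, 3 of 3 detected, summed to 2.50%, 3.86% and 10.5% in shMCU replicates 1, 2 and 3, against 2.52%, 1.38% and 1.92% in shNC replicates 1, 2 and 3. Nearly all of this was miR-122-5p, with 305, 547 and 1333 counts in shMCU and 1115, 142 and 354 in shNC. The other liver markers did not follow it: miR-192-5p averaged 1488 ± 261 CPM in shMCU and 1450 ± 301 CPM in shNC (SD, n = 3 each), and miR-194-5p, named after its values were seen, had 1, 0 and 0 counts in shMCU and 4, 3 and 2 in shNC. Their part in the shares of miR-92a-3p was not tested. miR-92a-3p and miR-25-3p are also abundant in red blood cells. Of the blood markers 5 of 6 were detected, led by miR-486-5p and miR-451a, with miR-144-3p not listed, and they summed to 0.0476% to 0.101% in shMCU and 0.0604% to 0.0865% in shNC. The red cell miRNA miR-451a had 4, 3 and 3 counts in shMCU and 7, 2 and 4 in shNC. By CPM each shMCU library lay above each shNC library, as for 0.994% of all 503 listed miRNAs (the reverse held for 5.37%). The margin was narrow, 204 CPM in shMCU replicate 2 against 201 CPM in shNC replicate 3, from 3 and 4 counts. For miR-486-5p the groups overlapped. The part of blood miRNA in the members' values was not tested. Without the 10 most abundant other miRNAs in the denominator, miR-122-5p among them, the 3 members took 14.2% ± 2.73 in shMCU and 15.3% ± 4.57 in shNC (SD, n = 3 each), so the difference again stayed under either SD.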

How the data were processed

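Each deposited table gives whole-number read counts per mature miRNA for 1 library, not normalized by the authors, as their differing totals show. Bowtie and hg19 are named as aligner and genome build per the submitters' processing notes; the aligner's version and settings, the counting tool and the miRNA annotation were not given in the sources used here. No molecular identifiers are stated, so PCR copies may be counted. Groups and replicate numbers came from the sample titles, and no pair of replicates was a duplicate (chi-square over degrees of freedom from 3.75 to 26.4).

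The comparison used edgeR 4.0.16 under R 4.3.3 (robust quasi-likelihood F test, TMM, filterByExpr at a minimum count of 10, group as the only term, Benjamini-Hochberg adjustment over all miRNAs tested, threshold 0.05), after the script was tested on simulated data. The 79 miRNAs kept held 95.5% to 96.6% of each library. The SE is the log2 fold change over the square root of F. Printed CPM and shares use the sum of all listed counts. Intervals on counts are Clopper-Pearson at 95%. A count of 0 was taken to allow up to 3, a fixed setting and not the end of such an interval. Profile likeness used a pseudocount of 0.5.

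The members and lists were chosen with earlier results of these data known. Named miRNAs are the members, the detected members of the seed, opposite-arm and MCU lists, tested cluster partners, the 3 nearest in profile, and up to 2 per marker list. RefSeq sequences matched 437 of 503 names and all 3 members. The alternatives were DESeq2 1.42.0, limma 3.58.1 voom with quality weights, other scalings and filters, a replicate block, removal of abundant miRNAs and each library left out.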

Additional observations from a re-analysis of the deposited data

How the results depend on the processing

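The count of miRNAs called by edgeR, 0 of 79, was 1 with DESeq2 (miR-122-5p) and 1 without a filter (miR-375, outside the naming rule and chosen after its values were seen), and 0 in every other alternative, each library left out included. No member was called in any alternative; the lowest adjusted p of a member was 0.52, for miR-92a-3p without shMCU replicate 1. The 150 alternative values included those of other miRNAs, the counts of calls and the joint share. Of the 150, 18 values of members or their ratios had the other sign, as did the joint share without shNC replicate 1. The sign changed in 5 of 14 alternatives for miR-25-3p, 2 of 14 for miR-92a-3p and 8 of 12 for miR-92b-3p. For the ratios it changed in 1 of 8 for miR-25-3p to miR-92a-3p, 0 of 8 for miR-92b-3p to miR-92a-3p and 2 of 8 for miR-92b-3p to miR-25-3p. The log2 fold change of miR-25-3p was -0.10 with library totals alone, -0.073 without a filter and -0.039 with at least 100 counts in 3 libraries, and ran from -0.076 to 0.29 with a library left out. That of miR-92a-3p ran from -0.40 to 0.18 with a library left out. miR-92b-3p, fitted without a filter and with no value under the stricter filter, was 0.0068 with library totals alone, 0.095 with DESeq2 size factors, 0.15 with DESeq2 and 0.025 with voom, and leaving out 1 library gave -0.58 to 0.80. Left-out libraries moved the log2 ratio difference of miR-25-3p to miR-92a-3p to between -0.014 and 0.63, that of miR-92b-3p to miR-92a-3p to between 0.070 and 1.02, that of miR-92b-3p to miR-25-3p to between -0.31 and 0.88, and the joint share to between -1.47 and 0.23 points. The cause of these changes of sign was not tested. The labels do not say whether same-numbered libraries were prepared together. Their deviations from the group means had correlations of 0.16, -0.35 and 0.08 for replicates 1, 2 and 3, too few values to decide it. With the replicate block the count of calls was 0, miR-25-3p was 0.12, miR-92a-3p -0.13 and miR-92b-3p 0.13. Pairing cannot change the ratio differences of 0.25, 0.56 and 0.30, because the groups are equal in size. Only their p could move, and the exact sign-flip p were 0.50, 0.25 and 0.50 (smallest possible 0.25). Counting error entered the spread of each member to a different degree. On the log2 scale its SD was 0.068 beside 0.56 over the 6 libraries for miR-92a-3p, 0.10 beside 0.27 for miR-25-3p and 0.51 beside 0.99 for miR-92b-3p. SDs do not add, so these values are not shares of the spread. The alternatives for miR-106b-3p, chosen after seeing the data, kept its sign, from 0.13 to 0.95.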
